A study of Oncorhynchus mykiss with 42 samples.

Results

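The 36 cDNA clones described here had a lower mean log2 signal with FSH and with LH than without hormone in cultured rainbow trout testis of both stages studied. They were chosen from the measured values. A clone was kept where the FSH mean and the LH mean both lay at least 0.3 below the Ctrl mean at stage III and at stage I-II, on the log2 scale of the authors' deposited table. On that scale 1 unit is a 2-fold difference. Of 8175 clones with values, 36 (0.44%) met all 4 conditions, and 61 met the mirrored conditions with higher values. The 4 hormone differences are therefore given as a description, with no test. Comparisons among the cultured groups use the same Ctrl, FSH and LH arrays, so they too are given as values and counts that support nothing about the members. The T0 arrays took no part in the choice, and the comparison of stages at T0 is tested. The members are listed by clone ID, since the sources used here pair no clone with a gene or a sequence. For the same reason the tissue could not be checked against marker genes, and 0 gene lists could be tested.

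The study measured messenger RNA in testis fragments of all-male rainbow trout. Fragments were cultured for 96 h at 12 °C with FSH or with LH, each purified from salmonids and used at 500 ng/mL, or without hormone (Ctrl), the medium being changed at 48 h, and uncultured testis (T0) was profiled beside them. For each of the stages III and I-II there were 6 arrays of FSH, 6 of LH, 6 of Ctrl and 3 of T0, 42 in all. Each array was a nylon membrane hybridised with cDNA made from 5 µg of total RNA and labelled with 33P. The labels call the cultures replicate incubations of randomly distributed fragments and do not tie arrays to fish. The p-values below thus measure the spread between these samples, as a single spread shared by all 8 groups, most of them cultured. A difference between stages cannot be told apart from a difference between the fish used. In whole fragments, fewer cells of a type and less RNA per cell cannot be told apart.

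FSH and LH are glycoprotein hormones of the pituitary that act on the testis through receptors coupled to cyclic AMP. FSH acts mainly on Sertoli cells, which nurse the germ cells, and LH mainly on Leydig cells, which make androgens, while in fish FSH can also stimulate steroid production directly. In the trout staging of testis development, stages I and II hold spermatogonia as the only germ cells, and meiosis has begun by stage III. Transcripts known to be lowered by gonadotropin include anti-Müllerian hormone, a Sertoli cell product of the immature testis that FSH lowers in several fish.

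The medians of the deposited table lay between 7.15 and 7.17 on the log2 scale on all 42 arrays. Membranes held 64 blocks of 144 positions, and each clone was placed at the position whose scanner profile it matched, because the scanner exports carry no clone names. Every one of the 36 clones matched the nearest position. A repeated control spot, which had no values in the deposited table, differed between groups in the exports. It averaged 127 ± 21.9 intensity units with FSH, 131 ± 31.5 with LH, 120 ± 25.2 in Ctrl (SD, n = 6 each) and 577 ± 484 at T0 (n = 3) at stage III. At stage I-II it averaged 199 ± 25.3 with FSH, 125 ± 18.4 with LH, 285 ± 69.9 in Ctrl (n = 6 each) and 730 ± 206 at T0 (n = 3).

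The 36 clones were mostly bright. Their level, averaged over all arrays, had a median percentile of 82.8 among all clones, and ran from the 4.47th to the 99.7th. Of the 36, 30 lay above the median clone and 14 above the 90th percentile. On all 42 arrays 28 of them exceeded a background threshold, the median of the dim control spots plus 3 scaled median absolute deviations. By the first letters of the ID, 11 belonged to the 1rt series (30.6% of the members and 34.7% of all clones), 5 each to the tcbk, tcba and tcad series, 3 to tcaa, 2 each to tcay and tcac, and 1 each to tcab, tcag and tcam. The tcbk series made up 13.9% of the members and 23.1% of all clones, and the tcad series 13.9% and 5.37%.

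The members were unevenly spread over the membrane. They occupied 21 of the 64 blocks, with 5 in a single block, and 18 of the 36 (50%) lay in the 16 blocks lettered M to P, which held 25.7% of all clones. In most of those blocks the median clone also read lower with hormone. That median clone differed from Ctrl by as much as -0.09 with FSH and -0.21 with LH at stage III, and by as much as -0.24 with FSH and -0.37 with LH at stage I-II. When every block was given the same median on every array, a setting added after the data were seen, 25 clones met the conditions, 17 of them members. Those 17 comprised 14 of the 18 members in blocks A to L and 3 of the 18 in blocks M to P.

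**Figure D1:**
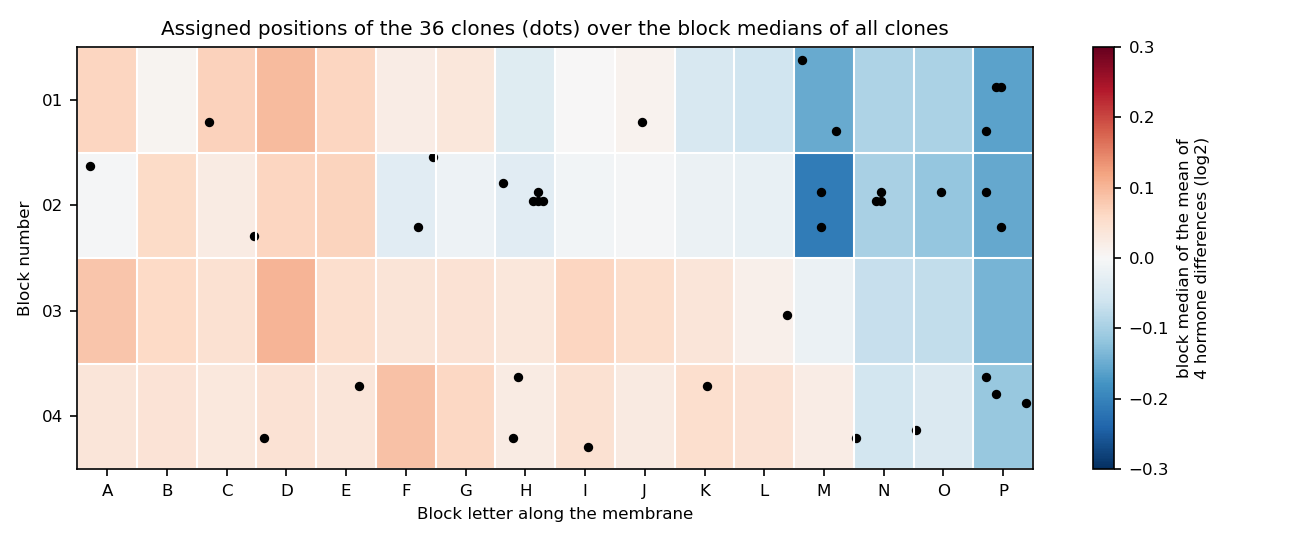
Assigned positions of the 36 clones (black dots) on the membrane, 16 block letters across and 4 block numbers down. The colour of a block is the median over all its clones of the mean of the 4 hormone differences (log2), and most of the blocks lettered M to P, where 18 of the members lie, are the bluest, that is, the most negative.

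Adjacent spots can share radioactive signal, so neighbours were examined. Of the 36 members, 15 touched a spot over 4 times brighter, against 52% of all clones. Members touched each other in 3 places. One held tcaa0002.d.03, tcad0007.n.01 and tcad0007.m.17. The next held tcag0001.c.01 and tcab0003.b.18. The last held tcba0018.b.14, tcay0034.a.03, tcba0018.c.09 and tcbk0010.b.21. Counting each such place once left 30 separate places. On the scanner scale the mean of the 4 differences had a median of -0.53 at the members' own spots, a low value that follows their choice. In the spots around them, with the spots of other members left out, it was -0.11 at 1 step, -0.05 at 2 steps and -0.03 at 3 and at 4 steps. The same was not taken around other clones, and sharing of signal was not tested.

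With hormone, the members had median differences from Ctrl of -0.66 with FSH (range -1.04 to -0.33) and -0.43 with LH (-0.97 to -0.34) at stage III. At stage I-II the medians were -0.62 with FSH (-1.58 to -0.33) and -0.50 with LH (-1.50 to -0.34). Over all clones the 4 medians lay between -0.01 and 0.02. A difference at or below -0.3 was found in 4.02% of all clones with FSH and 5.14% with LH at stage III, and in 3.63% with FSH and 10.2% with LH at stage I-II. Averaged over the 36 clones, the level at stage III was 8.63 ± 0.04 with FSH and 8.80 ± 0.07 with LH, against 9.28 ± 0.07 in Ctrl (SD over arrays, n = 6 each). At stage I-II it was 8.82 ± 0.05 with FSH and 8.93 ± 0.12 with LH, against 9.47 ± 0.06 in Ctrl. These differences are those by which the clones were chosen.

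The arrays of a hormone and of Ctrl overlapped for many of the members. Every FSH array lay below every Ctrl array for 17 members at stage III (0.355% of all clones) and for 21 at stage I-II (0.709% of all). Every LH array lay below every Ctrl array for 8 members at stage III (0.281% of all) and for 14 at stage I-II (1.88% of all). All 4 comparisons were free of overlap for 2 members, tcac0002.e.17 and tcad0004.b.08 (0.0245% of all clones). Of the others, 8 had 3 comparisons without overlap (0.0979% of all), 10 had 2 (0.257% of all), 8 had 1 (2.32% of all) and 8 had 0 (97.3% of all). For 18 of the 36, leaving out some single array was enough to end membership.

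**Figure D2:**
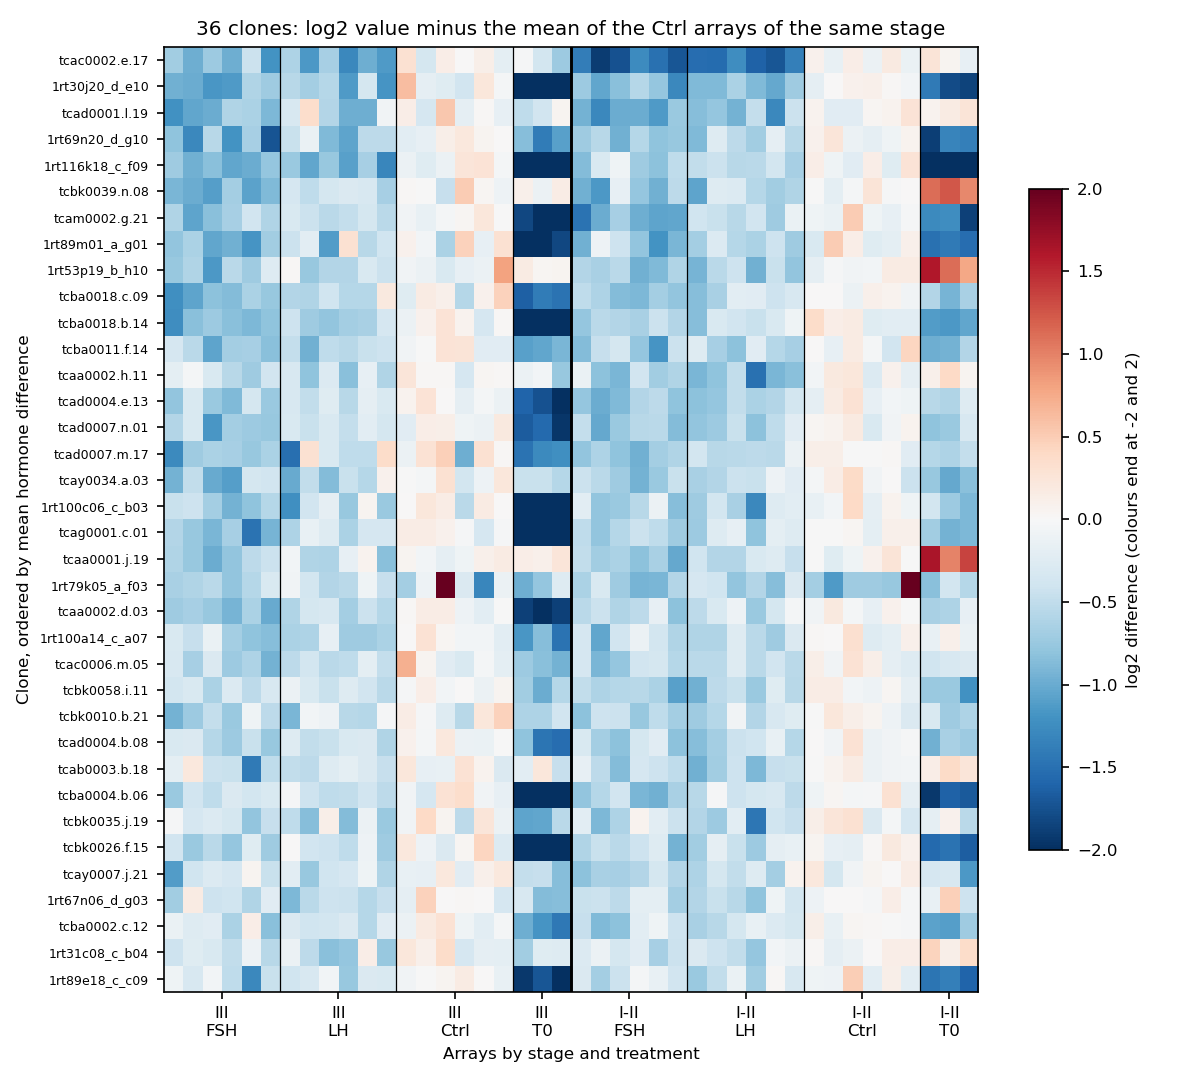
Log2 value minus the Ctrl mean of the same stage for the 36 clones (rows, lowest mean hormone difference at the top) on all 42 arrays (columns, FSH, LH, Ctrl and T0 of stage III and then of stage I-II). Colours end at -2 and 2; FSH and LH columns are mostly blue by the choice of the clones, while T0 columns run from dark blue to red.

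Clone tcac0002.e.17 had the lowest mean of the 4 differences, -1.22. At stage III its arrays ran 7.02 to 7.78 (median 7.37) with FSH and 6.92 to 7.60 (median 7.16) with LH, against 7.86 to 8.51 (median 8.27) in Ctrl. At stage I-II they ran 6.94 to 7.58 (median 7.23) with FSH and 7.12 to 7.59 (median 7.30) with LH, against 8.68 to 9.02 (median 8.82) in Ctrl. No hormone array of this clone reached any Ctrl array of its stage. The mean differences were -0.83 for FSH and -0.97 for LH at stage III, and -1.58 and -1.50 at stage I-II. It lay in the block of M to P with the lowest median, and met the conditions also with equal block medians, at a mean difference of -0.99. It touched a spot over 4 times brighter.

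Clone 1rt30j20_d_e10 had a mean difference of -0.84. At stage III it ran 8.76 to 9.32 (median 8.94) with FSH and 8.74 to 9.57 (median 9.29) with LH, against 9.53 to 10.53 (median 9.81) in Ctrl. Its stage I-II arrays ran 8.58 to 9.29 (median 9.07) with FSH and 8.85 to 9.23 (median 8.99) with LH, against 9.69 to 9.97 (median 9.89) in Ctrl. Only the LH and Ctrl arrays of stage III overlapped. The differences were close to each other, from -0.74 for LH at stage III to -0.93 for FSH at the same stage.

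Clone 1rt116k18_c_f09 had a mean difference of -0.72 and no brighter spot over 4 times its signal beside it. Its stage III arrays ran 8.67 to 9.00 (median 8.81) with FSH and 8.40 to 9.04 (median 8.81) with LH, against 9.46 to 9.97 (median 9.63) in Ctrl. Its stage I-II arrays ran 8.98 to 9.75 (median 9.24) with FSH and 9.18 to 9.48 (median 9.33) with LH, against 9.60 to 10.12 (median 9.87) in Ctrl. The groups were separate except for FSH and Ctrl at stage I-II. Here the stage III differences, -0.88 for FSH and -0.93 for LH, were larger than those of stage I-II, -0.55 and -0.51.

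Clone tcbk0039.n.08, with a mean difference of -0.67, had lower means with FSH than with LH. At stage III it ran 7.64 to 8.07 (median 7.79) with FSH and 8.08 to 8.45 (median 8.40) with LH, against 8.28 to 9.25 (median 8.76) in Ctrl. Its stage I-II arrays ran 8.08 to 9.07 (median 8.37) with FSH and 8.18 to 8.97 (median 8.66) with LH, against 9.04 to 9.49 (median 9.22) in Ctrl. At stage III every FSH array lay below every LH and Ctrl array, while LH and Ctrl overlapped. At stage I-II the highest FSH array exceeded the lowest Ctrl array.

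Clones tcad0001.l.19 and 1rt69n20_d_g10 also had low measured values with hormone, but were dim. Their differences are therefore given with a floor under dim values, and their place in the order is not established. For tcad0001.l.19 no FSH array and no stage I-II LH array was well above background, while 4 of 6 Ctrl arrays at stage III and all 6 at stage I-II were. Its measured means were 5.56 ± 0.24 with FSH against 6.45 ± 0.31 in Ctrl at stage III, and 5.58 ± 0.18 with FSH and 5.80 ± 0.32 with LH against 6.60 ± 0.19 in Ctrl at stage I-II (SD, n = 6 each). Dim values were set no lower than the lowest clone above background on the same array. With that floor Ctrl was 1.52-fold higher than FSH at stage III, and at stage I-II 1.6-fold higher than FSH and 1.59-fold higher than LH. For 1rt69n20_d_g10 the same groups were not well above background, with means of 5.75 ± 0.45 with FSH against 6.79 ± 0.16 in Ctrl at stage III, and 5.96 ± 0.15 with FSH and 6.17 ± 0.26 with LH against 6.68 ± 0.16 in Ctrl at stage I-II. With the same floor Ctrl was 1.64-fold higher than FSH at stage III, and at stage I-II 1.61-fold higher than FSH and 1.43-fold higher than LH. For LH at stage I-II the floor lay below the measured values and changed nothing. The folds of both clones rest on hormone values not well above background and are not lower limits.

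**Figure D3:**
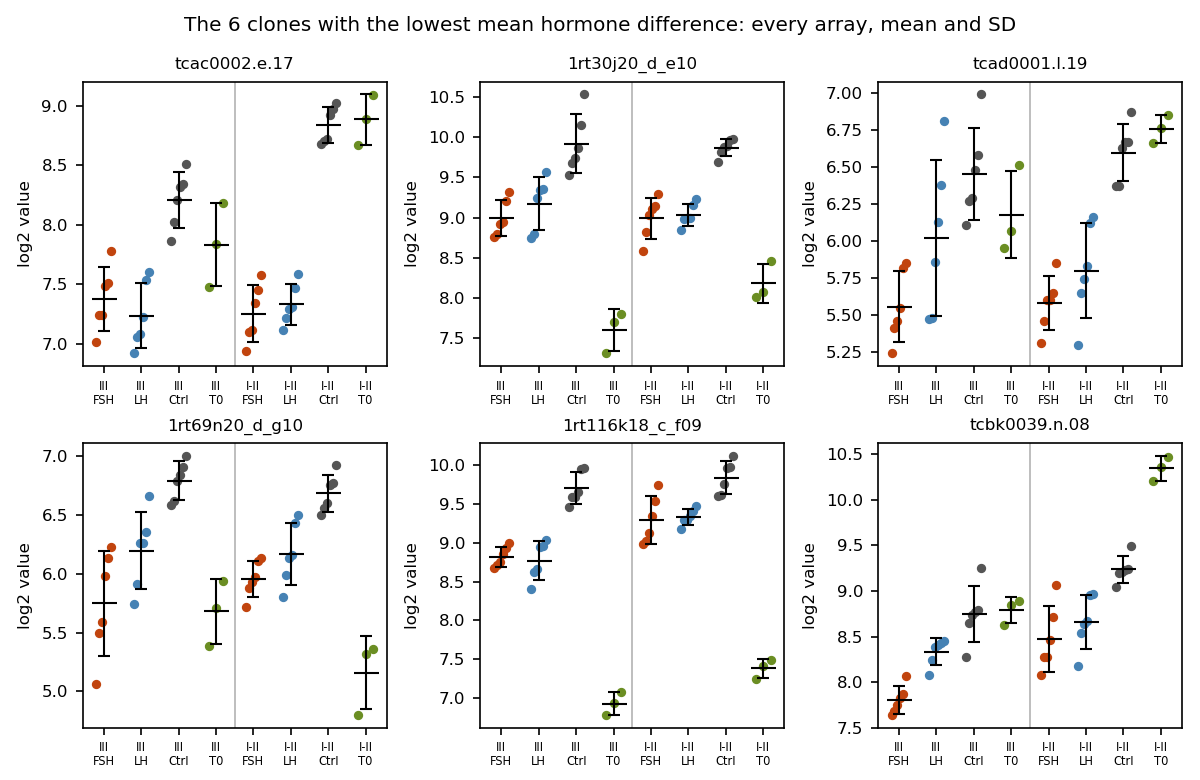
Log2 values of the 6 clones with the lowest measured mean hormone difference on every array (points), with the group mean and SD (bars), for FSH, LH, Ctrl and T0 of stage III on the left of each panel and of stage I-II on the right. For tcac0002.e.17 no FSH or LH point reaches a Ctrl point of its stage, and T0 lies below Ctrl in 1rt30j20_d_e10, 1rt69n20_d_g10 and 1rt116k18_c_f09 and near or above Ctrl at stage I-II in tcac0002.e.17, tcad0001.l.19 and tcbk0039.n.08.

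A further 6 clones named for their low values had mean differences between -0.65 and -0.62. They were tcam0002.g.21, 1rt89m01_a_g01, 1rt53p19_b_h10, tcba0018.c.09, tcba0018.b.14 and tcba0011.f.14. For 1rt89m01_a_g01, at the 97.1st percentile of level, the hormone and Ctrl arrays overlapped in all 4 comparisons. It ran 10.34 to 10.89 (median 10.65) with FSH and 10.41 to 11.82 (median 11.11) with LH against 10.89 to 11.99 (median 11.54) in Ctrl at stage III. Its stage I-II arrays ran 10.45 to 11.54 (median 10.79) with FSH and 10.93 to 11.37 (median 11.04) with LH against 11.34 to 12.15 (median 11.60) in Ctrl. Clone 1rt53p19_b_h10 had FSH and LH below every Ctrl array at stage I-II only, where its means were 8.18 ± 0.18 with FSH and 8.20 ± 0.25 with LH against 8.88 ± 0.14 in Ctrl. At stage III its means were 7.90 ± 0.30 and 8.13 ± 0.28 against 8.57 ± 0.40, and leaving out Ctrl array 60 ended its membership.

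Clones tcba0018.b.14 and tcba0018.c.09 touched each other, and the brighter of the pair was tcba0018.b.14. Its means were 11.16 ± 0.18 with FSH and 11.46 ± 0.18 with LH against 12.05 ± 0.20 in Ctrl at stage III, and 11.37 ± 0.12 and 11.57 ± 0.26 against 11.97 ± 0.25 at stage I-II (SD, n = 6 each). Clone tcba0018.c.09, about 4 log2 units dimmer, ran 6.67 to 7.27 (median 7.05) with FSH and 7.30 to 8.09 (median 7.33) with LH against 7.33 to 8.36 (median 7.99) in Ctrl at stage III. At stage I-II it ran 6.99 to 7.39 (median 7.17) with FSH and 7.04 to 7.68 (median 7.53) with LH against 7.78 to 7.99 (median 7.90) in Ctrl. Its LH and Ctrl arrays overlapped at stage III, and its other comparisons were free of overlap. Its mean difference was -0.62 in the deposited table and -0.25 with the fitted spot signal of the scanner exports, a setting added after the data were seen. The share of a bright neighbour in such a value was not tested. Clone tcba0011.f.14 lay near the middle of all levels and touched a spot over 4 times brighter. At stage III its means were 6.89 ± 0.25 with FSH and 7.01 ± 0.20 with LH against 7.57 ± 0.22 in Ctrl, with both hormones below every Ctrl array. At stage I-II both hormones overlapped Ctrl, FSH reaching 7.36 and LH 7.48 against a lowest Ctrl array of 7.33.

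At the edge of the choice, the members with the smallest margin were tcba0002.c.12, whose smallest difference was -0.33 for FSH at stage III, 1rt89e18_c_c09, at -0.33 for FSH at stage I-II, and tcbk0058.i.11, at -0.34 for LH at stage III. Just outside lay tcba0004.m.10, at -0.29 for LH at stage I-II, 1rt151f02_d_c01, at -0.29 for the same comparison, and tcba0006.l.19, at -0.28 for LH at stage III. The last of these had -0.85 for FSH at stage III, more than most members. Clone 1rt79k05_a_f03, singled out after its values were seen, owed its place to 2 arrays. It read 8.36 on Ctrl array 57 of stage III and 10.00 on Ctrl array 24 of stage I-II, against 4.55 to 5.78 on the other 40 arrays. Without those 2 arrays its differences were -0.08 for FSH and 0.15 for LH at stage III, and 0.12 for FSH and 0.26 for LH at stage I-II. Clone 1rt31c08_c_b04, also singled out after its values were seen, had no cultured array well above background, so no fold is given for it.

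Between the hormones, the FSH mean lay below the LH mean in 28 of the 36 clones at stage III (49.7% of all clones) and in 28 at stage I-II (53.6% of all). The difference of FSH minus LH had a median of -0.17 at stage III (range -0.53 to 0.19) and -0.14 at stage I-II (-0.60 to 0.32), against 0.00 and -0.02 over all clones. A clone with a lower mean for 1 hormone only could not enter the set, so these values describe the members only. In the limma fit over 8175 clones, 0 members passed an adjusted p of 0.05 at stage III, where 0.183% of all clones did (0.0489% lower and 0.135% higher with FSH), and 12 passed at an unadjusted p of 0.05 (904 of all). At stage I-II 1 member passed, against 0.0612% of all clones (0.0367% lower and 0.0245% higher with FSH), and 4 passed unadjusted (978 of all).

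The member that passed was tcam0002.g.21 at stage I-II. Its arrays there ran 8.78 to 9.59 (median 9.24) with FSH and 9.55 to 10.12 (median 9.84) with LH, and 10.09 to 10.76 (median 10.18) in Ctrl. The highest FSH array overlapped the lowest LH array, and the difference was -0.60 (SE 0.13). It no longer passed in 9 of the 12 fits that left out 1 array. At stage III the same clone ran 9.20 to 9.87 (median 9.62) with FSH and 9.71 to 9.94 (median 9.80) with LH, against 10.10 to 10.48 (median 10.23) in Ctrl. Both hormones lay below every Ctrl array there, and the FSH minus LH difference was -0.25 (SE 0.13).

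At stage III, tcbk0039.n.08 had an FSH minus LH difference of -0.53 (SE 0.14, limma adjusted p = 0.0995). Its highest FSH array read 8.07 and its lowest LH array 8.08. Clone tcag0001.c.01, chosen after its values were seen, had -0.50 (SE 0.13, limma adjusted p = 0.0964). Neither clone passed in the main fit. Under 5 of 12 other settings tcag0001.c.01 passed, among them quantile-normalised scanner signals and equal block medians, and in 0 fits that left out 1 array. It is the brighter member of a touching pair in block P01, where 3 members lie. The FSH and LH arrays took part in the choice, so these values describe the 2 clones and support nothing further.

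**Figure D4:**
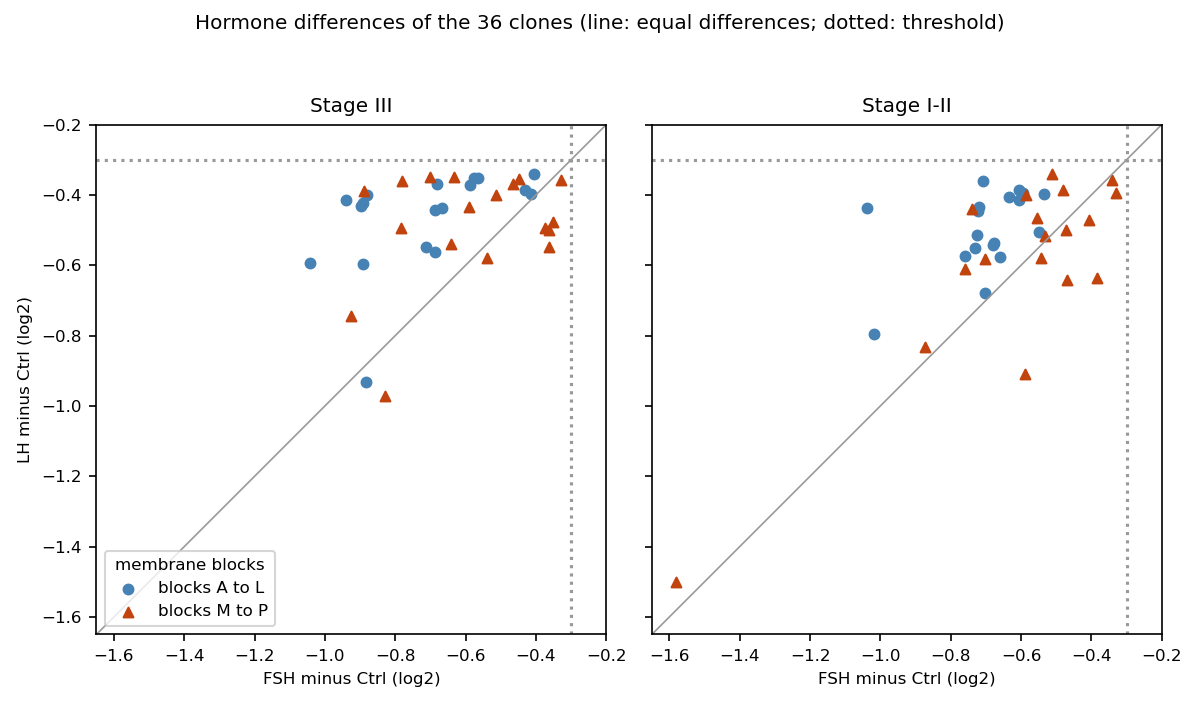
LH minus Ctrl against FSH minus Ctrl (log2) for the 36 clones at stage III (left) and stage I-II (right), with clones of membrane blocks A to L as circles and of M to P as triangles. The line marks equal differences, 28 clones of each panel lie above it, that is, lower with FSH than with LH, and the dotted lines mark the threshold of -0.3 that fixes the empty margin.

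The responses at the 2 stages were also set side by side. For FSH, the response at stage III minus that at stage I-II had a median of -0.01 over the 36 clones (range -0.34 to 0.75), and for LH a median of 0.04 (-0.43 to 0.53). These are differences of the values that chose the clones, and a clone with lower means at 1 stage only could not enter the set. In the limma fit 0 of the 36 and 0% of all 8175 clones passed for either hormone. At an unadjusted p of 0.05, 1 member passed for FSH (318 of all clones) and 2 for LH (557 of all). Clone tcac0002.e.17 had the highest value of the members for each hormone. It was 0.75 for FSH (SE 0.20, limma adjusted p = 0.475) and 0.53 for LH (SE 0.20, limma adjusted p = 0.672). The median clone of its block differed from Ctrl by -0.05 with FSH and -0.21 with LH at stage III. At stage I-II that median clone differed by -0.24 and -0.36. The part of the block in the clone's values was not tested.

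The uncultured testes did not enter the choice of clones. At T0, 25 of the 36 clones were lower at stage III than at stage I-II by limma (adjusted p under 0.05), where 12% of all clones were lower, and 0 were higher, where 11.6% of all were. The median difference over the 36 was -0.83, against -0.01 over all clones, and 33 of the 36 were negative. Every stage III array lay below every stage I-II array for 27 of the 36, as for 18.4% of all clones. The called differences ran from -1.73 to -0.50. The 11 clones without a call ran from -0.58 to 0.55, and the smallest adjusted p among them was 0.0551. Under 5 of 12 other settings 1 or 2 members were called higher, namely tcay0034.a.03 and, with array weights, 1rt69n20_d_g10, which was also called higher without T0 array 5 of stage III.

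**Figure D5:**
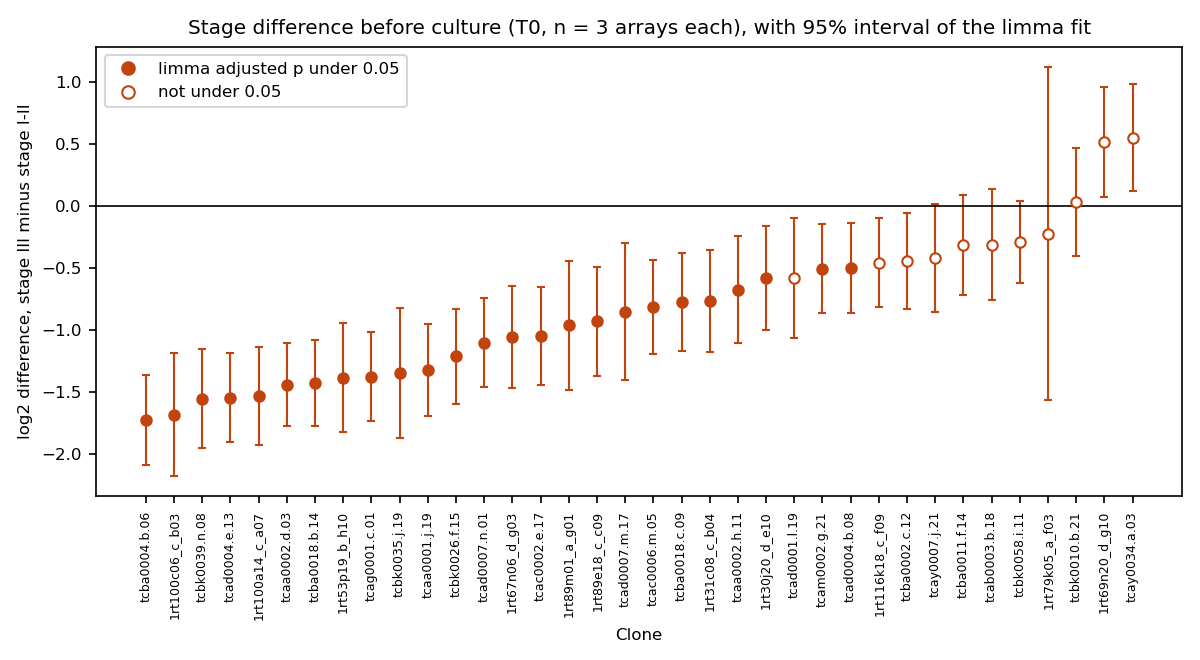
Difference in log2 value between stage III and stage I-II at T0 for each of the 36 clones (points, n = 3 arrays each), with the 95% interval of the limma fit; filled points passed an adjusted p of 0.05. All 25 filled points lie below 0, and the 3 clones above 0 are open.

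The largest fall was that of tcba0004.b.06. It read 8.17, 7.64 and 7.60 at stage III, against 9.34, 9.66 and 9.59 at stage I-II, a difference of -1.73 (SE 0.18, limma adjusted p = 3.12e-10), or 3.31-fold. The groups lay more than 1 unit apart. Clone 1rt100c06_c_b03 read 9.62, 9.79 and 9.85 at stage III, against 11.74, 11.37 and 11.20 at stage I-II, a difference of -1.68 (SE 0.25, limma adjusted p = 7.20e-07). Clone tcbk0039.n.08 read 8.85, 8.63 and 8.89 at stage III, against 10.36, 10.47 and 10.20 at stage I-II, with a difference of -1.55 (SE 0.20, limma adjusted p = 4.37e-08). In each of these clones the T0 arrays of the stages were separate, with a gap wider than the range within either stage.

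Clone tcad0004.e.13 read 8.69, 8.54 and 7.86 at stage III and 9.83, 9.78 and 10.12 at stage I-II, which differed by -1.55 (SE 0.18, limma adjusted p = 4.40e-09). Clone 1rt100a14_c_a07 read 7.90, 8.21 and 7.58 at stage III and 9.34, 9.59 and 9.36 at stage I-II, a difference of -1.53 (SE 0.19, limma adjusted p = 4.06e-08). Clone tcaa0002.d.03, at the 99.6th percentile of level, read 11.68, 11.42 and 11.67 at stage III and 12.86, 12.89 and 13.34 at stage I-II, with -1.44 (SE 0.17, limma adjusted p = 4.37e-09). All 3 were again free of overlap. Of the clones with the lowest hormone differences, tcac0002.e.17 read 8.18, 7.84 and 7.48 at stage III and 9.09, 8.89 and 8.67 at stage I-II (-1.05, SE 0.20, limma adjusted p = 5.52e-05), while 1rt116k18_c_f09 differed by -0.46 (SE 0.18, limma adjusted p = 0.0552). The clones above 0 were tcbk0010.b.21 at 0.03, 1rt69n20_d_g10 at 0.52 (SE 0.22, limma adjusted p = 0.0834), and tcay0034.a.03 at 0.55 (SE 0.22, limma adjusted p = 0.0551). No T0 array of 1rt69n20_d_g10 was well above background.

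Position on the membrane moved with this stage difference too. The median clone of a block differed between stages at T0 by -0.39 to 0.37, and by -0.39 to 0.15 in blocks M to P. Of the members in blocks A to L, 9 of 18 were lower at stage III, where 9.61% of all clones of those blocks were. In blocks M to P, 16 of 18 were, against 19.1% of all clones there. With equal block medians 26 of the 36 were lower at stage III, against 14.4% of all clones. Of the 17 members that met the hormone conditions with equal block medians, 10 were lower at stage III in the deposited table, where 12% of all clones were.

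The counts were also taken by neighbouring spots. Of the 21 members that touched no spot over 4 times brighter, 17 were lower at stage III at T0, and of the other 15, 8 were. Over all clones, whatever their neighbours, 12% were lower. The share of all clones in each kind was not taken, so the 2 member counts are not compared. With such clones left out of the fit, 18 of 21 were lower, against 14.1% of the clones kept. Counting the brightest clone of each touching place, 22 of 30 were lower, a count that was not taken over all clones. Among clones above the median level, 15.9% of all were lower at T0, the members being mostly bright. The repeated control spot read 577 ± 484 intensity units at stage III and 730 ± 206 at stage I-II at T0 (SD, n = 3 each), and with its level as a covariate 23 of the 36 were lower, against 10.7% of all clones lower and 10.6% higher.

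In the cultured groups the stages lay closer together in the members' medians. The difference of stage III minus stage I-II had a median of -0.16 with FSH, -0.08 with LH and -0.14 in Ctrl. In Ctrl, 7 of the 36 clones were lower at stage III by limma, where 5.32% of all clones were lower, and 0 were higher, where 5.72% of all were. In Ctrl 24 of the 36 lay within 0.3 of 0, and of the 7 called lower, 6 were also lower at T0. Neither count was taken over all clones. With equal block medians on the scanner scale, a setting added after the data were seen, 13 were lower (12% of all clones) and 1 was higher (9.77% of all). Ctrl arrays took part in the choice, so these counts describe the members only. The repeated control spot averaged 120 ± 25.2 units at stage III and 285 ± 69.9 at stage I-II in Ctrl (SD, n = 6 each), and with its level as a covariate 2 of the 36 clones, and 399 of 8175 instead of 903, were called.

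Clone tcba0004.b.06 again differed most. Its Ctrl arrays ran 9.95 to 10.64 (median 10.22) at stage III, against 11.09 to 11.58 (median 11.25) at stage I-II, without overlap, and differed by -0.99 (SE 0.13). Clone tcbk0035.j.19 ran 7.94 to 8.86 (median 8.46) at stage III, against 8.81 to 9.45 (median 9.18) at stage I-II, and differed by -0.68 (SE 0.18), with the highest stage III array just above the lowest of stage I-II. Clone tcac0002.e.17 differed by -0.63 (SE 0.14), with every stage III array given above below every one of stage I-II. Clone tcbk0026.f.15 ran 11.38 to 12.10 (median 11.65) at stage III, against 12.00 to 12.38 (median 12.22) at stage I-II, which overlapped, and differed by -0.51 (SE 0.14). The other 3 called, tcbk0039.n.08, 1rt100a14_c_a07 and tcbk0058.i.11, differed by -0.49, -0.44 and -0.43. Clone 1rt100a14_c_a07 no longer passed in 7 of 12 fits that left out 1 array and under 2 of 12 other settings. Clone tcbk0039.n.08 lost its call in 1 of 12 such fits and under 1 of 12 other settings. Clones tcac0002.e.17, tcbk0035.j.19 and tcbk0026.f.15 each lost it under 1 other setting. Only tcba0004.b.06 and tcbk0058.i.11 passed in every fit that held them. Ctrl arrays took part in the choice, so these calls too describe the members only.

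Most of the 36 clones had a higher mean after culture without hormone than at T0. This is given as a description, because a high Ctrl mean helped to choose the clones. The difference of Ctrl minus T0 had a median of 1.14 at stage III (range -0.15 to 2.78) and 0.61 at stage I-II (-1.33 to 2.46), against -0.04 over all clones at each stage. It was at least 0.3 in 31 of the 36 at stage III (23.7% of all clones) and in 25 at stage I-II (21.2% of all). It was at or below -0.3 in 0 of the 36 at stage III (26.8% of all) and in 4 at stage I-II (24.6% of all). Those 25 reached 0.3 at both stages, as did 14.2% of all clones. It was larger at stage III than at stage I-II in 31 of the 36, a count that was not taken over all clones and describes the members only. The culture difference and the T0 stage difference share the T0 arrays.

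The median difference from T0 was smaller in size with hormone than in Ctrl. The choice of the clones set the hormone means below Ctrl, so this describes the members only. Members with Ctrl below T0 lay farther from T0 with hormone. The difference from T0 had a median of 0.52 with FSH, 0.55 with LH and 1.14 in Ctrl at stage III, and of -0.02 with FSH, 0.14 with LH and 0.61 in Ctrl at stage I-II. The FSH and LH means both stayed above the T0 mean for 26 of the 36 at stage III and for 16 at stage I-II. This count was not taken over all clones. With FSH at stage I-II, 10 members lay at least 0.3 above T0, 10 at least 0.3 below and 16 between. Of all 8175 clones, 1847 lay at least 0.3 above T0, 2178 at least 0.3 below and 4150 between. The members' split was thus near that of all clones.

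The clones with the largest culture difference were 1rt116k18_c_f09, tcba0004.b.06, 1rt30j20_d_e10 and tcbk0026.f.15. Clone 1rt116k18_c_f09 read 6.93, 6.78 and 7.07 at T0 of stage III and 7.49, 7.41 and 7.25 at T0 of stage I-II, far below all of its cultured arrays given above, and Ctrl minus T0 was 2.78 at stage III and 2.46 at stage I-II. Clone tcbk0026.f.15 ran 10.90 to 11.44 (median 11.05) with FSH and 10.96 to 11.68 (median 11.28) with LH at stage III, against 9.42, 9.54 and 9.26 at T0. At stage I-II it ran 11.23 to 11.92 (median 11.69) with FSH and 11.46 to 12.03 (median 11.87) with LH, against 10.63, 10.70 and 10.53 at T0. In this clone every hormone array lay above every T0 array, and the hormone arrays overlapped Ctrl except for FSH at stage I-II. Ctrl minus T0 was 2.48 at stage III and 1.75 at stage I-II for tcba0004.b.06, 2.31 and 1.68 for 1rt30j20_d_e10, and 2.27 and 1.56 for tcbk0026.f.15.

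In 4 members Ctrl lay at least 0.3 below T0 at stage I-II. Clone tcaa0001.j.19, at the 98.8th percentile of level, ran 11.27 to 11.84 (median 11.59) with FSH, 11.42 to 12.34 (median 11.88) with LH and 12.08 to 12.43 (median 12.27) in Ctrl at stage III, against 12.39, 12.36 and 12.50 at T0. The stage I-II arrays ran 11.39 to 11.92 (median 11.74) with FSH, 11.82 to 12.16 (median 11.98) with LH and 12.17 to 12.67 (median 12.41) in Ctrl, against 14.04, 13.41 and 13.76 at T0. At stage III Ctrl and T0 overlapped, and the difference was -0.15. At stage I-II every cultured array lay below every T0 array, and Ctrl minus T0 was -1.33. Clone 1rt53p19_b_h10 read 8.74, 8.61 and 8.63 at T0 of stage III and 10.49, 10.00 and 9.65 at T0 of stage I-II, and Ctrl minus T0 was -0.09 at stage III and -1.17 at stage I-II. It was -0.04 at stage III and -1.11 at stage I-II for tcbk0039.n.08, and 0.15 at stage III and -0.25 at stage I-II for tcab0003.b.18. The fourth clone at or below -0.3 at stage I-II was 1rt31c08_c_b04, which no cultured array showed well above background, and tcab0003.b.18 did not reach -0.3.

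Within groups, the correlation between members varied widely from pair to pair, and it was not computed over all clones. After subtracting group means, the correlation across the 42 arrays between pairs of members in separate blocks had a median of 0.03 (606 pairs, -0.57 to 0.64). It was 0.33 for the 9 touching pairs (0.00 to 0.62) and 0.40 for the 15 other pairs of a shared block (-0.10 to 0.70). Pairs within a block lie close together on the membrane, and the part of position in these correlations was not tested. Across all 42 arrays without that subtraction, tcad0004.e.13 and tcad0007.n.01, in neighbouring blocks, had r = 0.94, and 1rt30j20_d_e10 and tcbk0026.f.15 had r = 0.84. These values hold the group differences by which the clones were chosen. With group means subtracted, the same pairs had r = 0.64 and 0.54. The first of these is the highest of the 606 pairs in separate blocks, and the second is also among the highest. They do not stand for the members, whose median in such pairs was 0.03.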

How the data were processed

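Nylon membranes with cDNA clones were read for 42 testis samples in 8 groups. The authors deposited a log2 value per clone and array, and no source used here states how it was normalised. Per the file headers, the deposited scanner exports hold linear spot intensity from the AGScan program. The exports name only grid positions, so each clone was assigned to a position by its profile over the arrays. Of the clones, 96.8% took the position nearest to their profile. Hormone and culture differences are differences of group means. The other comparisons were fitted with limma 3.58.1 in R 4.3.3 on the deposited log2 values, with 8 group means over all 42 arrays, and p-values were adjusted by Benjamini-Hochberg over 8175 clones at a threshold of 0.05. The fits were tested on simulated data. Changes of 0.5 log2 units were recovered in 11% at T0, 44% for FSH minus LH at stage III and 14% for the stage difference of the FSH response. Changes of 1 unit were recovered in 88%, 99% and 87%. The simulation changed 200 of the 8175 clones, whereas 1929 clones were called at T0 in the data. The adjusted threshold was thus less strict at T0 in the data, and the simulated shares for T0 do not carry over. Among the members at T0 a difference of -0.50 was called and a difference of -0.58 was not. In the other simulated comparisons differences near 0.5 could often go uncalled.

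The members and lists were chosen with earlier results of these data known. The clones named are the 12 with the lowest mean hormone difference, up to 6 or 4 of each direction with the largest called or culture differences, and the 3 just inside and 3 just outside the threshold. Other clones are named as touching members, as the smallest p of a comparison or as exceptions, chosen after their values were seen. Alternatives changed the signal scale, filter, moderation, weights, covariate and samples.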

Additional observations from a re-analysis of the deposited data

Results flagged for a closer look

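Of 144 groups of 6 values examined for 24 named clones, 10 (6.94%) held an array far from the other 5 relative to the range of the group. Chance flags about 1 in 20 groups, and no array was flagged more than 1 time. With LH at stage III, 1rt100a14_c_a07 read 8.90 on array 69 (next highest 8.44), tcba0004.b.06 read 10.27 on array 67 (next highest 9.91), tcba0018.c.09 read 8.09 on array 72 (next highest 7.50), and tcba0011.f.14 read 6.61 on array 68 (next lowest 7.01). With FSH at stage III, 1rt89e18_c_c09 read 6.82 on array 65 (next lowest 7.60) and tcba0018.b.14 read 10.81 on array 61 (next lowest 11.16). With FSH at stage I-II, tcbk0058.i.11 read 6.67 on array 30 (next lowest 7.13). In Ctrl at stage III, 1rt100c06_c_b03 read 11.52 on array 58 (next lowest 12.06) and 1rt53p19_b_h10 read 9.37 on array 60 (next highest 8.50). In Ctrl at stage I-II, tcam0002.g.21 read 10.76 on array 21 (next highest 10.23).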

How the results depend on the processing

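No paired analysis was possible because the labels do not show which arrays of the compared groups, if any, share fish. The hormone conditions chose 36 clones, 16 at a threshold of -0.4, and 34 to 38 when 1 array was left out. Without clones touching a spot over 4 times brighter 21 remained. That count follows from leaving out the 15 members that touch such a spot, since each clone is chosen on its own. Of the 36, 23 met them with quantile-normalised and 22 with median-centred scanner signals, 20 with scanner equal block medians and 19 with the fitted signal. The settings without touching clones, with equal block medians and with the fitted signal were chosen after seeing the data. At T0 the 25 calls were 21 to 24 when 1 array was left out. With the T0 arrays alone in the fit, 23 members were lower and 1 was higher. The 1929 calls over all clones were 1250 above the median level, 1193 without touching clones and 1472 to 1655 leaving out 1 array. In Ctrl the 7 calls were 11 with quantile-normalised and with median-centred scanner signals, 2 with the control level as covariate, 14 with equal block medians on the scanner scale, and 6 to 8 leaving out 1 array. The 903 over all clones were 399 with the covariate, 1777 and 1437 with equal block medians on the scanner and table scales, and 715 to 933 leaving out 1 array. For FSH minus LH at stage I-II the 1 call was 0 with either scanner scale, the arrays of the comparison alone, the covariate and scanner equal block medians, and 0 to 1 leaving out 1 array. The 5 over all clones were 8 with either scanner scale, the 25th percentile filter, trended moderation or without arrays of another column order, 9 with array weights, 0 with the arrays of the comparison alone, 1 with the covariate, 13 with equal block medians on either scale, and 0 to 7 leaving out 1 array. At stage III the 0 calls were 2 with either scanner scale, 3 with scanner equal block medians, 1 with table equal block medians, without touching clones or without arrays of another column order, and 0 leaving out 1 array. The 15 over all clones were 40 and 41 with quantile and median-centred scanner signals, 9 with array weights, 1 with the arrays of the comparison alone, 135 and 50 with equal block medians on the scanner and table scales, 25 without touching clones, and 7 to 20 leaving out 1 array. For the FSH interaction the 0 of all clones were 1, 5, 8 and 3 with quantile, median-centred, scanner equal-block and table equal-block values, and for the LH interaction 1 with either equal-block scale. Both were 0 leaving out 1 array. The causes of these moves were not tested. Of 494 alternative fits of 25 named tests, 452 gave the same call, 42 lost it and 0 reversed. At T0, 1rt30j20_d_e10 and tcam0002.g.21 lost their calls in 4 of 6 fits that left out 1 array. The 3 T0 arrays a stage and a position match inferred from profiles limit the precision.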
